A study of Rattus norvegicus with 12 samples.

Results

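The genes described here belong to the integrated stress response, to the cytosolic tRNA synthetases and to the translation factors of the cell. They were chosen by name, as 42 gene symbols, and 41 of them had at least 1 probe set among the 10410 genes with a symbol of their own on the rat array. Sesn2 had none. The chosen genes are 7 transcription factors and regulators of the integrated stress response, 3 of its target genes, the alpha subunit of eIF2 with 2 of its kinases (3 genes), 4 subunits of eIF2B, 19 tRNA synthetases, and 5 cap-binding, helicase and elongation factors.

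RNA of the whole pancreas of adult male Wistar rats was hybridized to Affymetrix RAE230-A arrays, 12 in all and 3 in each of 4 groups. Healthy untreated (HU) animals received neither agent and were kept for 5 to 6 weeks. Healthy treated (HT) animals received sodium tungstate by mouth, per the labels at 0.7 g/L in the first week (1 week) and at 2 g/L in the 4 to 5 weeks after it. Diabetic untreated (DU) animals received streptozotocin (STZ), a toxin taken up by beta cells, and no tungstate. Diabetic treated (DT) animals received STZ and the same tungstate schedule. Each array held RNA pooled from 3 rats, so every error below is the spread between pools and not between rats. The diabetes is a chemical one, and in whole-organ RNA fewer cells of a type and less RNA per cell cannot be told apart. An array is named by its group and replicate number (DT3 is replicate 3 of the DT group), and values are log2 signals, so that a difference of 1 is a 2-fold change.

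In the integrated stress response, kinases that sense stress phosphorylate the alpha subunit of the translation initiation factor eIF2. The phosphorylated form blocks eIF2B, the factor that recharges eIF2, and general translation falls while the mRNA of the transcription factor Atf4 is translated more. Atf4, with partners such as Ddit3 (also called CHOP) and Cebpb, then raises the transcription of genes for amino acid supply, of tRNA synthetases, which load amino acids onto tRNA, and of feedback regulators such as Trib3 and Ppp1r15a. Acinar cells, which make up most of the pancreas, are known for a very high rate of protein synthesis.

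Atf4 acts on DNA through the C/EBP-ATF response element. Its core, TGATGNAA, was searched for on both strands of RefSeq promoters (assembly GRCr8, 250 bases before to 50 bases after the annotated start), which were at hand for 38 of the 42 listed genes. Those of Atf3, Eif4ebp1, Gars1 and Rars1 were not among them. The core was found in 9 of the 38 promoters (23.7%), against 3.98% of all 33469 promoters of the same length. By role, it was in 7 of 17 tRNA synthetase promoters and in that of Trib3 (of 6 transcription factors and regulators). Of the promoters of 3 target genes (Asns, Chac1 and Sesn2, which had no probe set), only that of Chac1 held it. It was in none of those of the eIF2 alpha subunit and its kinases, eIF2B or the translation factors. The stretches with the core are shown for 8 of the 9 genes because the core is what these genes share at the level of sequence. The capitals mark the core, on either strand.
Trib3 (chr3:161275536-161275565, minus strand, core from 21 bases before the start): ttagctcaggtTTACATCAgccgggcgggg
Chac1 (chr3:126795953-126795982, plus strand, 167 bases before): cttctccgccgTTGCATCActcctgctagg
Iars1 (chr17:15193658-15193687, minus strand, 24 bases before): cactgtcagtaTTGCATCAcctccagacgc
Mars1 (chr7:65023752-65023781, minus strand, 17 bases before): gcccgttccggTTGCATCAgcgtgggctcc
Nars1 (chr18:60275778-60275807, minus strand, 14 bases before): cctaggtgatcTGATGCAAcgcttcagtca
Tars1 (chr2:62114811-62114840, minus strand, 27 bases before): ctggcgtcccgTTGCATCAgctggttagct
Cars1 (chr1:208225334-208225363, minus strand, from base 18 after the start): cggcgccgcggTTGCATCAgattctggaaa
Yars1 (chr5:146820190-146820212, plus strand, from base 39 after the start): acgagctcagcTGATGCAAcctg
Of these stretches, all except that of Trib3 read TTGCATCA or, on the other strand, TGATGCAA.

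The cAMP response element, TGACGTCA, which reads the same on both strands, was in 2 of the 38 promoters (5.26%, against 1.83% of all promoters). They were those of Ppp1r15a, which directs a phosphatase to eIF2 alpha, and Eef2, the elongation factor that moves the ribosome along the mRNA.
Ppp1r15a (chr1:105139644-105139673, minus strand, 66 bases before): cgcctctccggTGACGTCAgcatagcgctg
Eef2 (chr7:9189251-9189280, minus strand, 31 bases before): aggccgggcgtTGACGTCAgcggtctcttc
The E-box CACGTG was in 8 promoters (21.1%, against 6.42% of all), those of Aars1, Atf4, Eef2, Eif4e, Farsb, Iars1, Tars1 and Vars1. These matches describe the letters in these windows and do not show that a factor binds there.

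Few of these genes passed the test in the diabetic pancreas. In DU vs. HU, Eif4a2 rose and Lars1 fell at an adjusted p under 0.05 (limma, Benjamini-Hochberg over 15866 probe sets), which is 2 of 41 genes, and 3.2% of all probe sets passed the same test (1.47% higher and 1.73% lower). In DT vs. DU, Trib3 alone rose (1 of 41 genes, against 1.12% of all probe sets, and 0.655% higher), and in DT vs. HU it was again the only gene called (1.32% of all probe sets, and 0.756% higher). Both of these comparisons rest on the same DT arrays. The count of members called was therefore close to what the whole array gave in each comparison. Of the 41 genes, 32 had a 95% interval within a 1.5-fold change in either direction in DU vs. HU, and 37 had one in DT vs. DU, against 88.6% and 93.2% of all probe sets.

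Trib3 encodes a pseudokinase that is induced late in the integrated stress response and that binds Akt, a kinase of insulin signaling. Its log2 signal was 7.13, 7.34 and 7.16 in the HU arrays, 7.21, 7.39 and 7.72 in HT, 7.64, 7.85 and 7.61 in DU, and 8.15, 8.52 and 8.503 in DT. The DT arrays lay above all others, and the DU arrays lay above all HU arrays. In DT vs. DU, Trib3 rose 1.62-fold (0.69 ± 0.13 on the log2 scale, fold change and its standard error, n = 3 pools a group, adjusted p = 0.0218 from limma). In DT vs. HU it rose 2.27-fold (log2 fold change 1.18, adjusted p = 0.00113 from limma), whereas the difference between DU and HU animals, 0.49 on the log2 scale, did not pass (adjusted p = 0.067). In healthy animals tungstate gave a difference of 0.23 (95% interval -0.06 to 0.52), and the difference between its effect in diabetic and in healthy animals, 0.46, did not pass either (interaction term in limma, adjusted p = 0.497).

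The change of Trib3 between DT and DU was present on both chip lots that held arrays of these groups. DT1 and DT2 lay 0.70 above DU1, which was scanned on the same day, and DT3 lay 0.89 above DU3, which came from the same chip lot. The call in DT vs. DU was lost when the fit was blocked by scan day (0.70, adjusted p = 0.121) and on leaving out DT2, DT3, DU1 or DU3, with adjusted p-values of up to 0.109. In DT vs. HU, all 12 fits with 1 array left out kept the call, and the fit blocked by scan day did not (0.92, adjusted p = 0.506). Under that block DU vs. HU and DT vs. HU are linked by DT3 and HT3 alone, the only diabetic and healthy arrays scanned on the same day. The other 2 probe sets of Trib3 were also highest, on average, in DT animals. One had 6.58, 6.59 and 6.33 in DT against 6.25, 6.20 and 6.28 in DU, and it passed in DT vs. HU (log2 fold change 0.50, adjusted p = 0.0145) but not in DT vs. DU (0.26, adjusted p = 0.279). The remaining one had 7.004, 7.70 and 7.30 in DT against 6.81, 6.74 and 6.67 in DU, with a log2 fold change of 0.60 (adjusted p = 0.076), and in DU vs. HU it differed by -0.09, opposite in sign to the other 2 probe sets.

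Atf4, the central transcription factor of the pathway, had log2 signals of 10.56, 10.48 and 10.81 in HU, 10.32, 10.82 and 10.28 in HT, 10.85, 10.83 and 10.79 in DU, and 11.09, 11.24 and 10.55 in DT. The groups overlapped in every comparison, with the smallest spread in DU and the largest in DT, and the log2 fold changes were 0.20 in DU vs. HU (95% interval -0.17 to 0.57) and 0.14 in DT vs. DU (-0.23 to 0.51). These are mRNA levels. The translation of Atf4, the step that eIF2 controls, is not seen by the array.

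Ddit3, a transcription factor tied to cell death under lasting stress, was dim (a mean log2 signal under 6). It measured 5.31, 5.29 and 5.46 in HU, 5.13, 5.17 and 5.18 in HT, 5.14, 5.46 and 5.08 in DU, and 5.33, 4.98 and 5.09 in DT. Its log2 fold change was -0.13 in DU vs. HU (95% interval -0.37 to 0.11) and -0.09 in DT vs. DU (-0.33 to 0.15). Atf3, a stress-induced transcription factor, stayed between 6.01 and 6.30 over the 12 arrays, with log2 fold changes of -0.03 in DU vs. HU (95% interval -0.24 to 0.18) and 0.00 in DT vs. DU (-0.21 to 0.20). Cebpb, a partner of Atf4, was dim as well, and Atf5, a factor translated under the same control as Atf4, had group means from 8.87 in HU to 9.09 in DT with SDs of up to 0.36. Neither passed the test in any comparison. Ppp1r15a measured 6.51, 6.65 and 6.24 in HU, 6.78, 6.72 and 6.80 in DU and 6.72, 6.91 and 6.74 in DT. Its DU arrays lay above all HU arrays without passing the test (log2 fold change 0.30, adjusted p = 0.124), as did 12.5% of all probe sets.

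**Figure D1:**
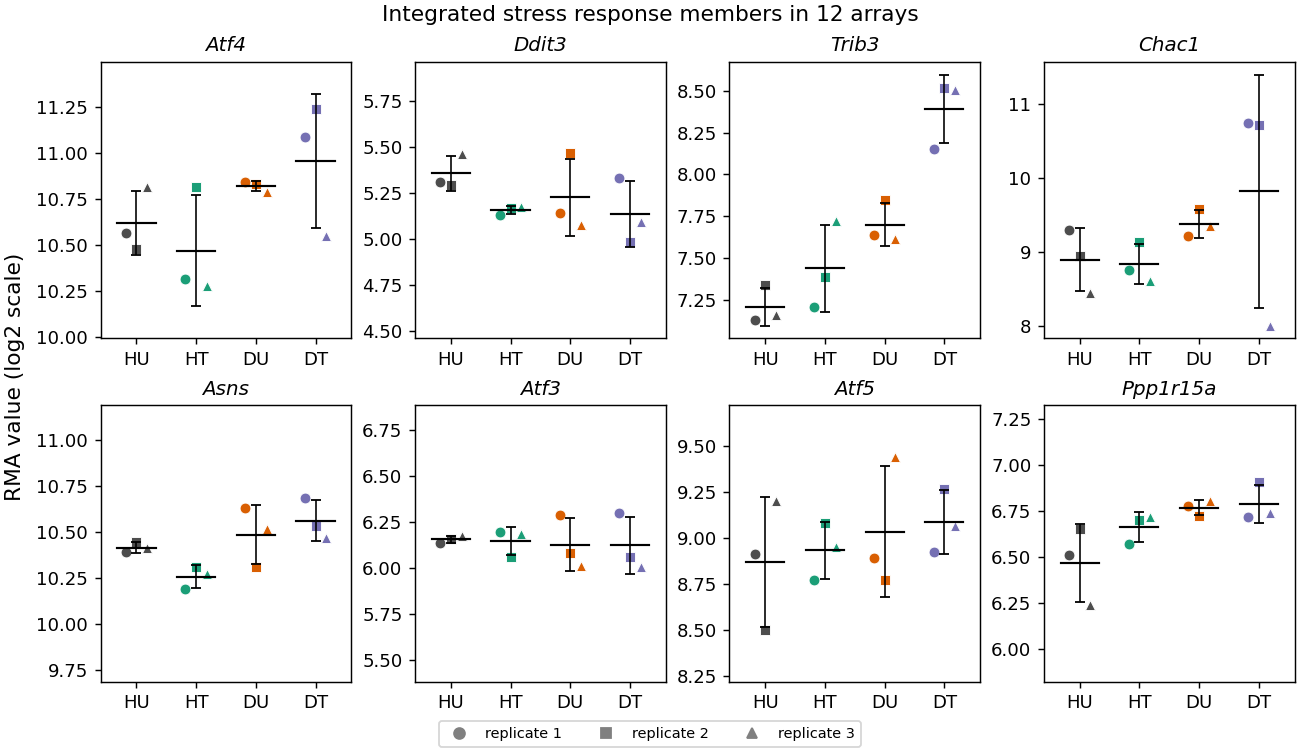
Log2 signal (vertical axis) of 8 integrated stress response genes in the HU, HT, DU and DT groups. Each point is 1 array (a pool of 3 rats), the horizontal bar is the group mean and the error bar is the SD over 3 arrays. Trib3 was highest in the 3 DT arrays, and Chac1 was near 10.7 in 2 DT arrays and 8.01 in the third.

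Chac1, an enzyme that degrades glutathione and a target of Atf4, was the most variable member and is described here because of that spread, which was seen first. Its log2 signal was 9.30, 8.94 and 8.45 in HU, 8.76, 9.13 and 8.61 in HT, 9.21, 9.58 and 9.35 in DU, and 10.75, 10.71 and 8.01 in DT. DT1 and DT2 were the highest of the 12 arrays and DT3 was the lowest. The within-group SD, 0.83, was larger than that of 99.9% of the probe sets. Chac1 did not pass in DT vs. DU (log2 fold change 0.44, 95% interval -0.70 to 1.58, adjusted p = 0.876). Without DT3 its log2 fold change was 1.35 in DT vs. DU (adjusted p = 0.00489), 1.83 in DT vs. HU (adjusted p = 0.000847) and 1.41 in the interaction (adjusted p = 0.0473). DT3 is the array behind the spread for which Chac1 was picked. These p-values therefore depend on leaving it out and are not tests of the gene. DT1 and DT2 lay 1.51 above DU1 within scan day 1, and DT3 lay 1.34 on the log2 scale below DU3 within chip lot 3 (difference -1.34).

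DT3 also stood apart from DT1 and DT2 in other ways. It was the lowest of the 3 DT arrays for 28 of the 41 genes (68.3%), among them Atf4, Asns and 15 of 19 tRNA synthetases, against 39.5% of all probe sets, and the highest for Eif2b2, Wars1 and Eif4a1 (31.4% of all probe sets). It was scanned on another day and came from another chip lot than DT1 and DT2. The summed signal of 6 beta cell markers was 13.08 in DT3 on the log2 scale, against 12.04 and 11.77 in DT1 and DT2, that of 16 leukocyte markers 12.98 against 11.58 and 11.94, and that of 14 stellate cell and fibroblast markers 12.11 against 11.44 and 11.52. Among the DT arrays, the sums of the other islet, duct, adipocyte, erythroid and endothelial markers were also highest in DT3. Only the acinar sum was lowest in DT3 (18.05, against 18.11 in both DT1 and DT2). The part of the scan day, the chip lot and these cell types in the low Chac1 of DT3 was not tested.

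The other 2 measured targets passed in no comparison. Asns, which makes asparagine and is a standard target of Atf4, measured 10.39, 10.44 and 10.41 in HU, 10.19, 10.31 and 10.27 in HT, 10.63, 10.31 and 10.52 in DU, and 10.68, 10.53 and 10.47 in DT. The DT arrays lay above all HU arrays and the HT arrays below them, and no comparison passed (log2 fold change 0.07 in DU vs. HU, 95% interval -0.13 to 0.27, and 0.08 in DT vs. DU, -0.12 to 0.27). Eif4ebp1, which holds back the cap-binding factor Eif4e, had log2 fold changes of 0.02 in DU vs. HU (95% interval -0.23 to 0.26) and -0.12 in DT vs. DU (-0.36 to 0.12), with its lowest value, 8.77, in DT3.

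No gene of eIF2 alpha, its kinases or eIF2B passed the test in any comparison. Eif2s1, the alpha subunit of eIF2, had group means of 7.76 (HU), 7.63 (HT), 7.96 (DU) and 7.94 (DT) on the log2 scale, with SDs of 0.11 to 0.28. Eif2ak4 (GCN2), the kinase that senses uncharged tRNA, and Eif2ak2 (PKR), the kinase that senses double-stranded RNA, were both dim, and their log2 fold changes in DU vs. HU were 0.03 and -0.02. The 95% intervals of all 3 genes lay within a 1.5-fold change in all 4 comparisons of groups. Of the eIF2B subunits, Eif2b4 measured 8.46, 8.20 and 8.33 in HU and 8.79, 8.81 and 8.56 in DU, without overlap and without passing the test (log2 fold change 0.39, adjusted p = 0.18). Eif2b1, Eif2b2 and Eif2b3 had log2 fold changes of 0.03 to 0.04 in DU vs. HU and of 0.11 to 0.13 in DT vs. DU, none of which passed.

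**Figure D2:**
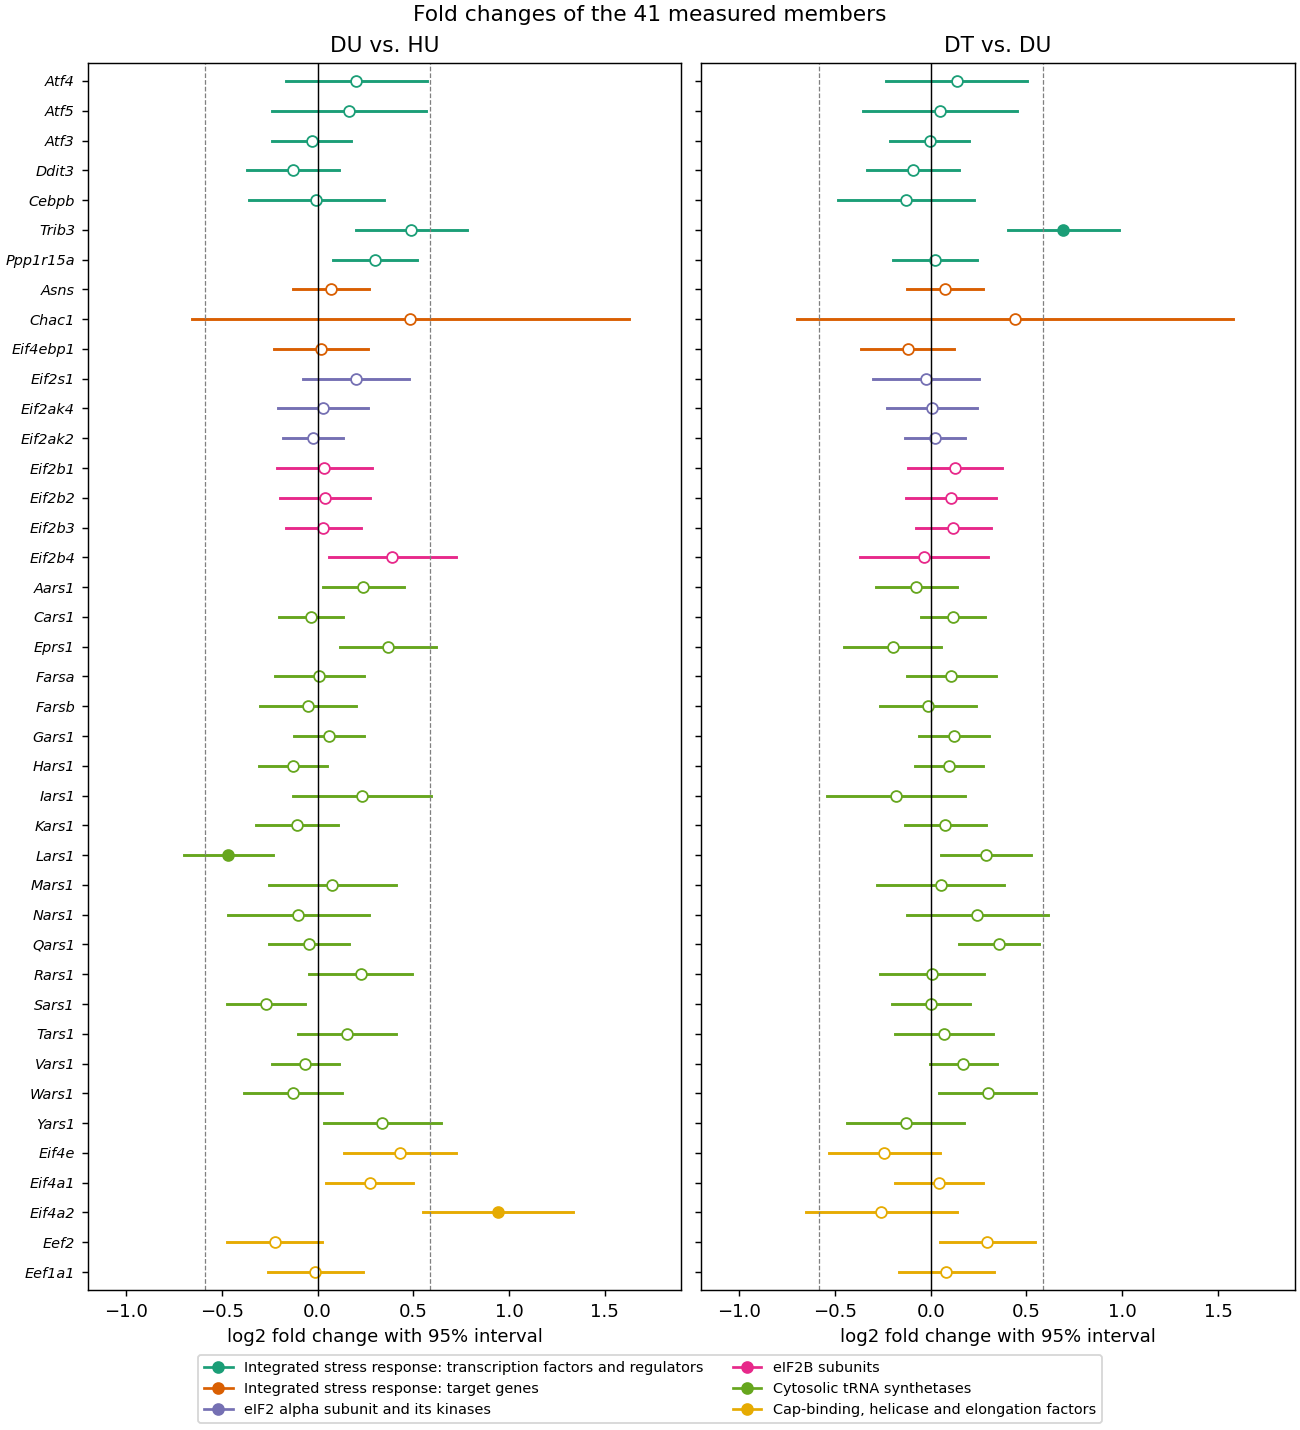
Log2 fold change (horizontal axis) with its 95% interval for each of the 41 genes (rows, coloured by role), in DU vs. HU (left) and DT vs. DU (right). Filled points passed an adjusted p under 0.05, open points did not, and dashed lines mark a 1.5-fold change. Eif4a2, Lars1 and Trib3 are the filled points, and the wide interval is that of Chac1.

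Eif4a2, an RNA helicase that unwinds mRNA ahead of the ribosome, had the largest rise among the 41 genes in DU vs. HU. It measured 8.996, 9.04 and 8.82 in HU, 8.70, 8.76 and 8.33 in HT, 10.16, 10.09 and 9.44 in DU, and 9.92, 9.41 and 9.58 in DT. Every diabetic array lay above every healthy array. In DU vs. HU it rose 1.92-fold (0.94 ± 0.18 on the log2 scale, adjusted p = 0.0129 from limma). DU1 and DU2 lay 1.31 above HU3 within chip lot 1. Blocked by chip lot, the fit kept the call (1.15, adjusted p = 0.00665), and blocked by scan day it did not, although the fold change was larger (1.66, adjusted p = 0.144). DU and HU arrays never shared a scan day. Leaving out DU1, DU2 or HU3 also ended the call (adjusted p of up to 0.0704). In DT vs. HU the log2 fold change was 0.69 (adjusted p = 0.0837), and in DT vs. DU it was -0.26 (95% interval -0.65 to 0.14).

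Eif4a1, the paralog of Eif4a2 with the same activity, measured 9.28, 9.33 and 9.49 in HU and 9.54, 9.67 and 9.71 in DU, without overlap and without passing the test (log2 fold change 0.27, adjusted p = 0.175). Its 95% interval, 0.04 to 0.50, lay below that of Eif4a2, 0.55 to 1.33. Eif4e, which binds the mRNA cap, differed by 0.43 between DU and HU (adjusted p = 0.101) by the brighter of its 2 probe sets and 0.04 by the other. Eef2 measured 11.79, 11.90 and 11.68 in HU, 11.78, 11.33 and 11.59 in DU, and 11.94, 11.91 and 11.75 in DT, so that DU differed from HU by -0.22 (adjusted p = 0.295) and DT from DU by 0.30 (adjusted p = 0.388). Eef1a1, which brings loaded tRNA to the ribosome and has near-identical copies in the genome that its probe sets may share, lay between 12.6 and 13.2 on all arrays by the brighter of 2 probe sets, and its log2 fold changes were -0.01 in DU vs. HU (95% interval -0.26 to 0.24) and 0.08 in DT vs. DU (-0.17 to 0.33). The other probe set of Eef1a1 lay between 12.3 and 12.9, with a log2 fold change of -0.19 between DU and HU, of 0.02 between DT and DU, and of -0.35 between HT and HU (adjusted p = 0.871 in the last).

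**Figure D3:**
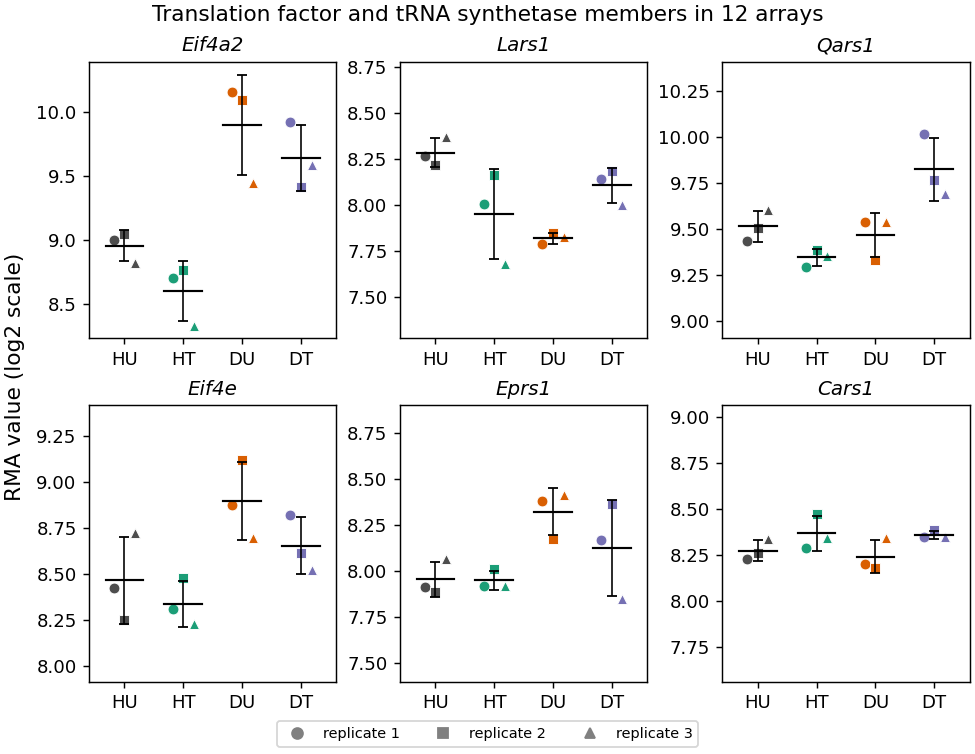
Log2 signal (vertical axis) of the translation factors Eif4a2 and Eif4e and of the tRNA synthetase genes Lars1, Qars1, Eprs1 and Cars1 in the 4 groups. Points are arrays, bars are group means and error bars are SDs over 3 arrays. Eif4a2 was higher in all 6 diabetic than in all 6 healthy arrays.

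The tRNA synthetases lay on both sides of 0. In DU vs. HU, 1 of 19 was called, lower, and 9 had a log2 fold change above 0, with a median of -0.03 (-0.02 over all probe sets). In DT vs. DU none of the 19 was called by limma (3 at an unadjusted p under 0.05, against 9.89% of all probe sets), 14 were above 0, and the median was 0.08 (0.00 over all probe sets). Of the 19 genes, 15 had a 95% interval within a 1.5-fold change in DU vs. HU, and 18 had one in DT vs. DU. Hars1 and Vars1, which load histidine and valine, were dim.

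Lars1 loads leucine onto its tRNA. It measured 8.26, 8.22 and 8.37 in HU, 8.01, 8.16 and 7.68 in HT, 7.79, 7.85 and 7.83 in DU, and 8.14, 8.18 and 8.001 in DT. The HU arrays lay above all others. In DU vs. HU Lars1 fell 1.38-fold (-0.47 ± 0.11 on the log2 scale, adjusted p = 0.034 from limma). DU1 and DU2 lay below HU3 within chip lot 1 (difference -0.56). This call was less firm than that of Eif4a2: it was lost on leaving out any of 6 arrays (HU1, HU2, HU3, DU1, DU2 or DU3, adjusted p of up to 0.12) and in the fits blocked by chip lot (-0.37, adjusted p = 0.174) or scan day (-0.34, adjusted p = 0.723), and the B-statistic was below 0.

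Lars1 and Qars1, which loads glutamine, shared a pattern. Qars1 measured 9.43, 9.51 and 9.60 in HU, 9.30, 9.39 and 9.36 in HT, 9.54, 9.33 and 9.54 in DU, and 10.02, 9.77 and 9.69 in DT. In both genes every DT array lay above every DU array and every HT array lay below every HU array, which held for 2 of the 41 genes and for 0.542% of all probe sets. This pattern was not planned beforehand, so the count and the share are a description and not a test. In DT vs. DU the log2 fold change was 0.36 for Qars1 (adjusted p = 0.139) and 0.29 for Lars1 (adjusted p = 0.363), and in HT vs. HU it was -0.17 and -0.33 (adjusted p = 0.871 for both). The difference between the effects of tungstate in diabetic and in healthy animals was 0.52 for Qars1 (adjusted p = 0.196) and 0.62 for Lars1 (adjusted p = 0.156), and neither passed the interaction test.

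Several other synthetases had separated groups without passing. Eprs1, which loads glutamate and proline, measured 7.91, 7.88 and 8.06 in HU and 8.38, 8.18 and 8.41 in DU (log2 fold change 0.37, adjusted p = 0.104). Aars1, for alanine, was higher in all DU than in all HU arrays (0.24, adjusted p = 0.193), as was Tars1, for threonine (0.15, adjusted p = 0.51). Sars1, for serine, was lower in all DU and in all DT arrays than in all HU arrays, with log2 fold changes of -0.27 in both comparisons (adjusted p = 0.14 and 0.188). Wars1, for tryptophan, was higher in all DT than in all DU arrays (0.30, adjusted p = 0.403), as was Cars1, for cysteine, by the brightest of its 3 probe sets (0.12, adjusted p = 0.708). By the other 2, with 0.14 and -0.04, the DT and DU arrays overlapped. Over all 41 genes, 8 were higher and 2 lower in DU than in HU without overlap, against 12.5% and 16.9% of all probe sets, and 5 were higher and none lower in DT than in DU, against 7.58% and 6.28%.

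**Figure D4:**
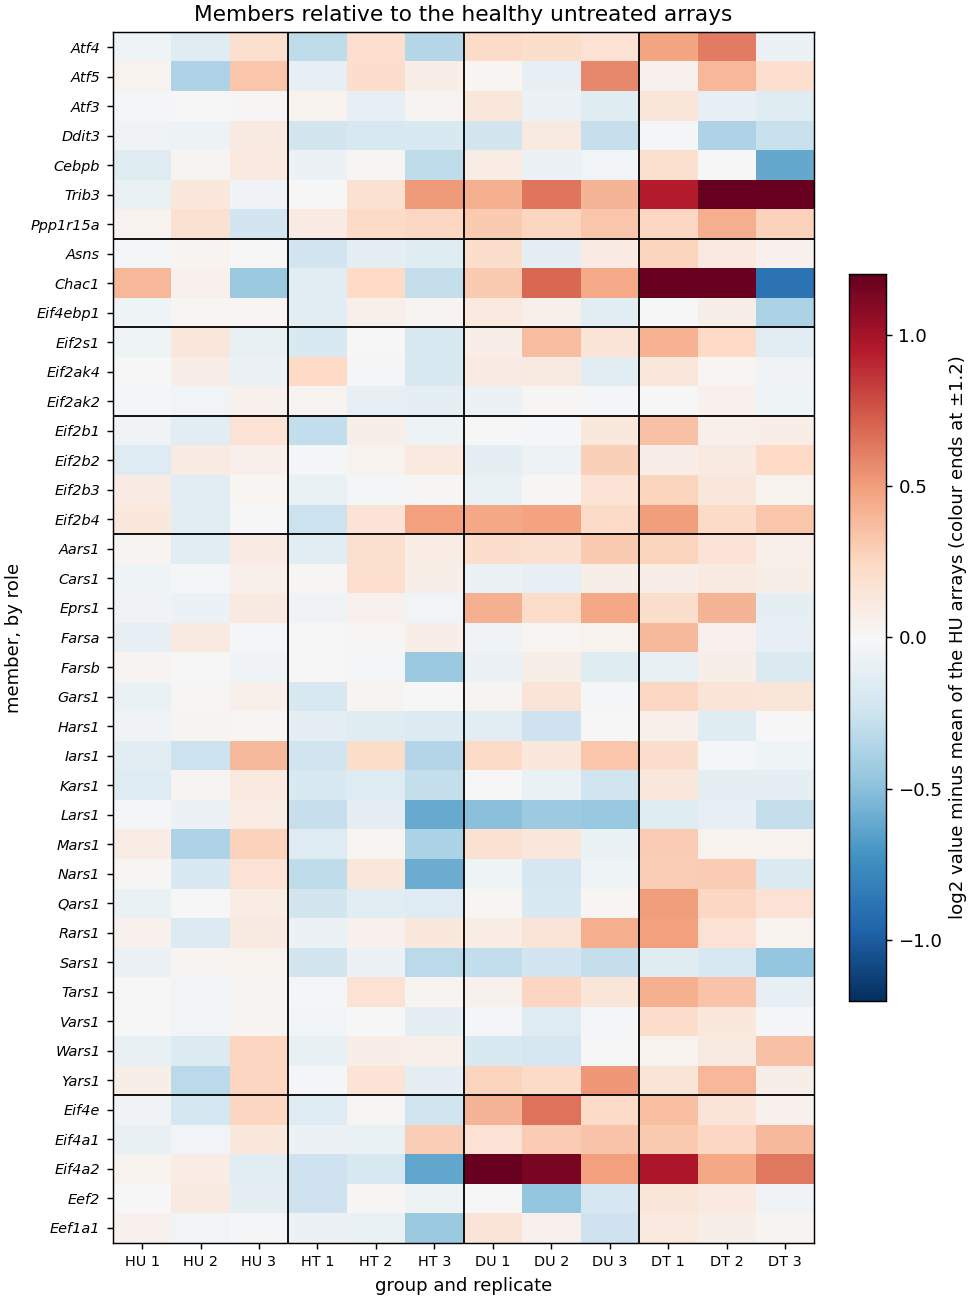
Log2 signal of the 41 genes (rows, in blocks by role) minus the mean of the HU arrays, for the 12 arrays (columns); red is higher and blue lower than HU, with the colour scale ending at ±1.2. Trib3 was high in all DT arrays, Eif4a2 in all DU and DT arrays, and Chac1 in DT1 and DT2 but low in DT3.

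Set beside each other, the 9 genes with a C/EBP-ATF response element core in the promoter and the 28 measured genes whose promoter had none had medians of 0.23 and 0.02 in DU vs. HU (7 of 9 and 15 of 28 above 0), and of 0.07 and 0.06 in DT vs. DU (6 of 9 and 20 of 28 above 0). In DT vs. HU all 9 were above 0, with a median of 0.16, and 21 of 28 were, with a median of 0.15. Over all probe sets 45.1%, 51.6% and 45.6% were above 0 in DU vs. HU, DT vs. DU and DT vs. HU. Within chip lot 1, DU1 and DU2 lay above HU3 for Chac1 (0.95), Trib3 (0.58), Tars1 (0.12) and Aars1 (0.11). They lay below it for Nars1 (-0.29), Iars1 (-0.21), Cars1 (-0.14), Mars1 (-0.12) and Yars1 (-0.006). DT1 and DT2 lay below HU3 for Iars1 (-0.29) and Mars1 (-0.10) and above it for the rest. An element outside the bases searched would have been missed. These values are given as a description. Of the 9, only Trib3 was called in any comparison.

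In healthy animals none of the 41 genes was called between HT and HU by limma (0.0063% of all probe sets were), and 1, Lars1, had an unadjusted p under 0.05 (5.41% of all probe sets had). The median log2 fold change was -0.06 (0.00 over all probe sets), 27 of 41 genes were below 0, and 38 had a 95% interval within a 1.5-fold change (95.2% of all probe sets). The HT arrays lay below all HU arrays for 9 genes (5.83% of all probe sets), and above them for none (5.74%). The 9 were Lars1, Sars1, Kars1, Qars1, Hars1, Eif4a2, Ddit3, Asns and Eef1a1, with log2 fold changes from -0.14 to -0.35. Hars1 and Ddit3 were dim. Within chip lot 2 (HT1 and HT2 against HU1 and HU2) the differences of the 9 genes ran from -0.09 to -0.29. Of 38 further translation factors, 28 were also below 0 (median -0.11), with 9 lower and 2 higher without overlap. Of 32 further integrated stress response genes, 16 were below 0, with 2 lower and 3 higher without overlap. The interaction also gave no call (0.422% of all probe sets), with 4 genes at an unadjusted p under 0.05 (8.75% of all probe sets). These were Lars1, Qars1, Trib3 and Eef2.

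Other genes of the same and neighbouring pathways were taken from lists that hold none of the 41. Of 32 further integrated stress response genes, 1 rose in DU vs. HU by limma (1.47% of all probe sets did), and 14 had an unadjusted p under 0.05 (20.2% of all probe sets had). In that comparison 24 of the 32 were above 0, with a median log2 fold change of 0.13 (-0.02 over all probe sets), and 11 were higher and 2 lower without overlap (12.5% and 16.9% of all probe sets). None of the 32 was called in DT vs. DU (7 at an unadjusted p under 0.05, against 9.89% of all probe sets), where the median was -0.01. The gene called was Nupr1, a stress-induced chromatin protein of the pancreas, at 1.44 above HU on the log2 scale in DU animals (adjusted p = 0.000967), with DT differing from DU by -0.79 (adjusted p = 0.0822). Cth, which makes cysteine, and Fgf21, a stress hormone, differed by 0.89 and 0.65 in DU vs. HU (adjusted p = 0.055 and 0.0579). Of 9 further synthetases and scaffold proteins and of 38 further translation factors, none was called in either comparison (at an unadjusted p under 0.05, 3 and 5 were in DU vs. HU, with 1 and 3 for DT vs. DU), and the smallest adjusted p was that of the mitochondrial synthetase Tars2, which differed by -0.30 between DU and HU (adjusted p = 0.109). A further list held 17 ER chaperones and related genes of the unfolded protein response, the stress pathway of the endoplasmic reticulum. In DT vs. DU 3 of the 17 rose (Sel1l, Xbp1 and Sdf2l1) and none fell, against 0.655% and 0.46% of all probe sets. In DU vs. HU 1 of the 17 was higher (Dnajc3) and 3 were lower (Sel1l, Xbp1 and Sdf2l1), against 1.47% and 1.73% of all probe sets. The median of that list in DT vs. DU was 0.25, against 0.05 for the 41 genes and 0.00 for all probe sets. Xbp1 and Sel1l had been picked by the authors from these arrays, among the genes that tungstate modified in diabetic animals. The counts and the median of this list are therefore a description and no independent test.

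Markers of other cell types moved with the groups. The summed signal of the 6 beta cell markers was 14.60 to 14.73 in HU, 14.58 to 14.79 in HT, 11.21 to 11.63 in DU and 11.77 to 13.08 in DT arrays on the log2 scale, and 4 of the 6 (Ins1, Ins2, Iapp and Slc2a2) fell in DU vs. HU and were lower in DT vs. HU. Of 14 stellate cell and fibroblast markers, 3 were lower in DT than in HU (Col1a2, Col3a1 and Postn). Where Trib3 was called, in DT vs. DU, the median log2 fold changes of these 14 and of 16 leukocyte markers were -0.36 and -0.34, with none of them called. Of the beta cell markers Ins2 rose in DT vs. DU (1.45, adjusted p = 0.0387 from limma). The summed signals of the first 2 lists ranged from 11.91 to 12.25 (stellate cell and fibroblast) and from 12.31 to 12.93 (leukocyte) in DU, against 11.44 to 12.11 and 11.58 to 12.98 in DT. Of 8 markers of other islet cells, 1 rose (Sst, log2 fold change 1.32) and 2 fell (Scg5, -0.85, and Pcsk2, -0.80) in DU vs. HU, and of 2 erythroid markers Hbb fell (-1.19). Of 7 duct markers Spp1 fell in DT vs. DU (-0.53).

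The acinar list had 2 calls among 18 genes in DU vs. HU (3.2% of all probe sets were called). Amy2a3, an amylase, fell from 13.12 ± 0.07 in HU to 7.94 ± 1.29 in DU (SD, n = 3 pools) and was 12.95 ± 0.24 in DT, and Prss2, a trypsinogen, rose (log2 fold change 0.45, adjusted p = 0.0318) and was higher in DT vs. HU as well (0.54, adjusted p = 0.0233). The summed acinar signal, 18.002 to 18.11 on all arrays, is carried by genes near the top of the scale such as Prss1 and Cpa1, and it moved little while Amy2a3 fell. The part of these cell types in the changes of Trib3, Eif4a2 and Lars1 was not tested.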

How the data were processed

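The deposited values are log2 signals that the authors made with RMA in the affy package (background correction, quantile normalization between arrays, 1 summary value per probe set; affy version not given in the sources used here). Scanner records deposited with each array gave its scan day and chip lot (coded 1 to 6 and 1 to 3). The record of DU2 alone also held a comment, on the in vitro transcription time, which was not used. Of 15923 probe sets, 57 controls were left out. Genes were matched through the platform annotation, and each was represented by the probe set with the highest mean over 12 arrays (41 of 42 genes, 48 probe sets, 5 genes with several). A mean per group was fitted with limma 3.58.1 in R 4.3.3, and p-values were adjusted by Benjamini-Hochberg over 15866 probe sets in each contrast. Genes were called at an adjusted p under 0.05. Dim means a mean under 6. The members and the lists were chosen with earlier results of these data known. Genes called in any contrast and 8 fixed genes (Atf4, Ddit3, Trib3, Asns, Atf3, Eif4ebp1, Eef2 and Eef1a1) were described in full, and up to 4 of each other list by the smallest adjusted p. The fit was tested on simulated data. The alternatives were other scaling, a filter on dim probe sets, other limma settings, blocks for replicate number, scan day or chip lot, the B-statistic, the probe set of widest range per gene, and leaving out each array. The number of arrays limits the precision. The stretch of 1 promoter is not reported here.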

Additional observations from a re-analysis of the deposited data

Results flagged for a closer look

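Among the 41 genes none passed the test of whether tungstate changed expression differently in diabetic and healthy animals (the interaction term). Among the other genes named, 3 of the unfolded protein response did (0.422% of all probe sets passed). The difference between both effects on the log2 scale was 0.88 for Xbp1, a transcription factor of that response (adjusted p = 0.0017), 0.88 for Sdf2l1, a cofactor of ER chaperones (adjusted p = 0.0305), and 1.09 for Sel1l, which takes part in degrading misfolded ER proteins (adjusted p = 0.0041). Their log2 fold changes, in the same order, were 0.81, 1.00 and 1.16 in DT vs. DU and -0.07, 0.12 and 0.07 in HT vs. HU. The comparison DT vs. DU shares the DU arrays with DU vs. HU, in which the 3 genes were lower by limma (log2 fold changes -0.57, -0.77 and -1.04). The authors had already picked Xbp1 and Sel1l (their Sel1h) from these arrays, among the genes that tungstate modified in diabetic animals. The p-values of both genes here are therefore no independent test.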

How the results depend on the processing

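The number of genes called was recomputed under 22 alternatives a comparison (21 for the interaction), and the calls were few, so 1 gene moves a count. In DU vs. HU (2 called) 13 alternatives gave a count within 1.5 times. It was 0 with the scan day as block, 1 with the chip lot as block or at a B-statistic above 0 (each time Eif4a2), and 0 to 3 on leaving out each array in turn. In DT vs. DU (1 called) it was 0 when only the arrays compared were fitted and 0 to 1 on leaving out each array. The fit blocked by scan day and that without DT3 also called 1 gene, but it was Chac1 and not Trib3. In DT vs. HU (1 called) it was 0 with the scan day as block, 2 with the replicate number as block (Trib3 and Eif4a2), and 1 to 2 on leaving out each array. In HT vs. HU it stayed 0 throughout, and in the interaction it was 0 to 1, the 1 being Chac1 without DT3. Quantile normalization and median centring changed none of these counts. They could change little, since the deposited values were already quantile normalized and the array medians lay between 6.63 and 6.70.

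Replicate numbers were shared between groups. The deviations of same-numbered arrays had correlations from -0.29 to 0.31 over 18 pairs of arrays, with a median of 0.03. With 3 arrays a group these correlations cannot show whether the number marks a pairing. The number also goes in part with the chip lot, since HT3, DU3 and DT3 all came from chip lot 3. With the replicate block Trib3 passed in DU vs. HU (adjusted p = 0.0376) and Eif4a2 in DT vs. HU (adjusted p = 0.0368).

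Of 624 recomputed medians of the 6 groups of genes, 40 moved by more than the spread between arrays. Leaving out dim probe sets moved that of the eIF2 alpha subunit and its kinases to 0.20 (DU vs. HU) or 0.18 (comparing DT with HU), where 1 gene remained. With the scan day as block the medians in DU vs. HU were -0.29 for the regulators, -0.39 for the targets, -0.13 for the eIF2 alpha subunit and its kinases, -0.23 for eIF2B, -0.14 for the synthetases and 0.12 for the translation factors. In DT vs. DU they were 0.16 for the synthetases and -0.067 for the translation factors, and in DT vs. HU -0.16 for the regulators, -0.11 for the targets, -0.091 for eIF2B, 0.0084 for the synthetases and 0.0034 for the translation factors. In HT vs. HU they were -0.14 for both the regulators and the synthetases, and in the interaction 0.33 for the regulators, 0.18 for the eIF2 alpha subunit and its kinases, 0.30 for eIF2B and 0.28 for the synthetases. By construction this block rests DT vs. DU on DT1 and DT2 against DU1, and HT vs. HU on HT1 and HT2 against HU3. It ties DU vs. HU and DT vs. HU together only through DT3 against HT3, so these 2 comparisons hang on DT3, the array that stood apart for Chac1. With the chip lot as block the medians were 0.029 for the regulators in DU vs. HU, 0.041 for them in DT vs. HU, 0.16 and 0.17 for the eIF2 alpha subunit and its kinases in the same comparisons, and 0.12 for the translation factors in DU vs. HU. On leaving out each array in turn the regulators ranged from 0.010 to 0.20 in DU vs. HU, from 0.029 to 0.27 in DT vs. HU and from -0.017 to 0.14 in the interaction. In DT vs. HU the synthetases ranged from 0.065 to 0.21 and the translation factors from 0.10 to 0.31. In the interaction the targets ranged from 0.040 to 0.31, the eIF2 alpha subunit and its kinases from -0.016 to 0.12, and the translation factors from -0.00445 to 0.23. The causes of these shifts were not tested. With 3 pools a group the median standard error of a log2 fold change between groups was 0.103 over all probe sets. Over the 41 genes it was 0.115, and 0.162 in the interaction (0.146 over all probe sets). Of the 41 genes, 6 were dim (a mean log2 signal under 6).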
